A study of Mus musculus with 4 samples.

Results

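Hepatic stellate cells are the vitamin A storing pericytes of the liver sinusoid. In health they hold retinyl esters in lipid droplets and wrap the sinusoidal endothelium, and during injury they are known to lose these droplets and to secrete collagen as myofibroblasts. Here they are the 179 of 10215 kept cells, 1.75%, whose summed UMIs of Lrat, Reln, Colec11 and Angptl6 reached 15 per 10000, while mesothelial genes (Msln, Upk3b, Nkain4, Lrrn4) stayed under 10 and endothelial genes (Clec4g, Stab2, Ptprb) under 20. A UMI (unique molecular identifier) marks 1 captured RNA molecule. The choice of cells used the same counts as the values below, so those 11 genes and the contrasts with other classes of cells are descriptions without tests.

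The cells came from liver non-parenchymal cells of Col1a2-CreERT2 mice with a tdTomato reporter allele, a system in which Cre driven by Col1a2, a collagen gene, switches on a red label in cells that express it when Cre is induced. The allele is spelled R27RtdTomato for positive recovery, R29RtdTomato for negative recovery and R28RtdTomato for negative injury. Steatohepatitis was induced with MCDHF, a diet lacking methionine and choline with 45% fat, for 8 weeks, with 0.1% L-methionine in the water. Positive and negative name the reporter fraction, and recovery the stage after injury. How long recovery lasted, when Cre was induced, and how many mice of which sex and age were used are not stated in the labels. Each group is 1 library, so no difference between libraries has a replicate, and counts of the positive injury library were not analysed here. Fewer stellate cells in a library may reflect the tissue, the density gradient or the sort, which cannot be told apart.

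The positive recovery library gave 131 stellate cells of 2126 kept, or 6.16% (exact 95% Clopper-Pearson interval 5.18 to 7.27). Negative injury gave 41 of 5271, or 0.778% (0.559 to 1.05), and negative recovery 7 of 2818, or 0.248% (0.0999 to 0.511). Over the mesenchymal cells alone (stellate, mesothelial and fibroblast-like by marker sums), the shares were 7.94%, 11.9% and 7.53%, with overlapping intervals. Their median depth was 11120, 11162 and 11442 UMIs per cell in positive recovery, negative injury and negative recovery, and they held 1404223, 461775 and 84179 UMIs in all. Intervals cover counting error only. With 7 cells, negative recovery is given by its values.

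The stellate sum had a median of 45.9 per 10000 UMIs in positive recovery (lowest 15.2, highest 183), 56.8 in negative injury (23.3 to 108) and 111 in negative recovery (18.0 to 144). Near the threshold, 16 positive recovery cells lay between 15 and 20, just inside, and 34 between 10 and 15, just outside. In negative injury 0 cells lay in either range, so the set there did not hinge on the threshold. In positive recovery 57 further cells reached the stellate sum but exceeded the endothelial limit, and 15 exceeded the mesothelial one. The libraries shared 3 to 9 barcodes in pairs, and 0 of these belonged to stellate cells. Scrublet, a doublet caller, marked 108 positive recovery barcodes and 0 stellate cells, but in the negative libraries it marked under 0.5% of cells and did not work there.

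The 6 marker genes lie apart in the genome (mm10). Lrat (3:82892579-82903973) encodes the enzyme that esterifies retinol for storage. Colec11 (12:28594173-28623377) encodes a collectin of the lectin complement pathway. Reln (5:21884454-22344702) and Ecm1 (3:95734147-95739569) encode secreted matrix proteins, Angptl6 (9:20873808-20879727) an angiopoietin-like factor, and Tgfbi (13:56609523-56639562) a collagen-binding protein induced by TGF-beta. All 6 had a promoter in RefSeq's table for GRCm38.p6, where the 250 bases before the start were searched on both strands. CANNTG, the letters bound by Tcf21, Hand2 and other bHLH factors, was found in 5 of the 6, against 66.2% of all 32851 promoters. AGATAA, which zinc finger factors of the Gata family bind, was found in 1 promoter, that of Colec11, against 9.99% of all. TAATTA (4.84% of all) and CTA with TAG 4 bases further on (the MEF2 core, 3.20%) were found in 0. The Lrat (chr3:82903975-82904224, minus strand) and Colec11 (chr12:28623331-28623580, minus strand) promoters show these letters for the retinol enzyme and the collectin, with CANNTG and AGATAA matches in capitals.
Lrat: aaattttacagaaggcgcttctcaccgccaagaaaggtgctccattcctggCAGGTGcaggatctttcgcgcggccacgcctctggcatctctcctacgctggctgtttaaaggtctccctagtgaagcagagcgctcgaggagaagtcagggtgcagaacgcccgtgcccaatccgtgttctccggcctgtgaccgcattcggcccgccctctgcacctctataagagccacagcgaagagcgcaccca
Colec11: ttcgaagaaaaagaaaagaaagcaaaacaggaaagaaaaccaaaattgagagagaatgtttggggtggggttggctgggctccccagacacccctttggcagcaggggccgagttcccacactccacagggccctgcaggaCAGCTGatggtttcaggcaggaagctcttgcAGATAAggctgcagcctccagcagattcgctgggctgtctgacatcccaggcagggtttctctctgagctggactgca

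The name was checked against markers that the choice did not use, which differed in how far they set the members apart. Levels are CPM, the counts of a gene scaled to 1000000 counts of the group, summed over the cells of a group. Rgs5, a pericyte regulator of G-protein signalling (1:169655501-169695813), was at 1196 CPM (exact Poisson 95% interval 1140 to 1255) in positive recovery, 1877 (1596 to 2194) in negative recovery and 2380 (2241 to 2525) in negative injury. In endothelial cells of these libraries, taken as the background of free RNA, Rgs5 was at 23.7 CPM in positive recovery and 15.2 in negative injury. The transcription factor Lhx2, which is known to restrain stellate cell activation, was at 316, 297 and 338 CPM in the same order, with overlapping intervals, and at 1.66 CPM in positive recovery mesothelial cells. Hand2, a bHLH factor of mesenchyme, was at 585, 546 and 340 CPM. Des, the filament protein desmin, was at 364, 535 and 299 CPM, and Pdgfrb, the receptor for PDGF-BB, at 535, 344 and 327 CPM. Hhip and Ntm, further stellate markers, were at 98.3 and 70.5 CPM in positive recovery, near the level of 1 UMI per cell, and at 97.5 and 78.0 CPM in negative injury. Some of these markers were not confined to members. In 41 positive recovery cells with a stellate sum of 5 to 10, outside the threshold, Pdgfrb was at 573 and Des at 372 CPM. Hand2 was at 331 and Lhx2 at 148 CPM in those cells, and Rgs5 at 7.88.

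After each cell was thinned to 1000 UMIs, Lrat was seen in 70 of 131 positive recovery cells, 5 of 7 negative recovery cells and 29 of 41 negative injury cells. The matching endothelial counts were 0 of 136, 5 of 2115 and 4 of 2457, and endothelial cells had medians of 8899, 8416 and 6104 UMIs. Lrat is in the stellate sum, which members had to reach and endothelial cells had to stay under. Its contrast therefore follows from the choice of cells. Without thinning, Lrat was seen in 121 of 131 (92.4%), 7 of 7 and 41 of 41 stellate cells. Rgs5 was seen after thinning in 60, 5 and 36 cells, against 1, 22 and 42 endothelial cells. In positive recovery fewer than 1 in 2 cells thus had an Rgs5 UMI at this depth, while in negative injury 87.8% did.

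A second axis ran through the positive recovery cells. The sum of Dpt, Mfap4, Clec3b and Eln, matrix genes of portal and capsular fibroblasts that the choice of members did not use, was at 5 per 10000 or more in 51 of 131 cells. It reached 5 in 1 of 7 negative recovery cells and in 0 of 41 negative injury cells, where the highest was 3.1. Across the 131 cells the fibroblast sum was lower where the stellate sum was higher, with a Spearman rho of -0.78, a description over cells of 1 library that share depth and free RNA. Only 11 cells lay between 3 and 8. The 51 cells are called fibroblast-high below and the other 80 fibroblast-low, by a limit of 5 set after the values were seen. The label matched the markers of the fibroblast-low cells, and the fibroblast-high cells carry markers of both classes.

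**Figure D1:**
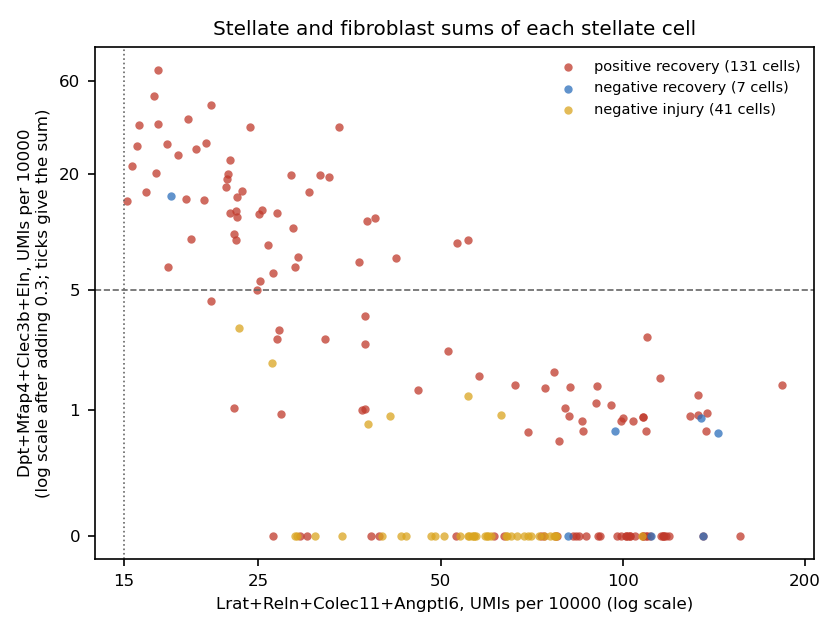
Each point is 1 of the 179 stellate cells, with its stellate sum (Lrat, Reln, Colec11, Angptl6) on the horizontal log axis and its fibroblast sum (Dpt, Mfap4, Clec3b, Eln) on the vertical log axis after adding 0.3, both in UMIs per 10000. Dotted and dashed lines mark 15 and 5; 51 positive recovery cells lie above the dashed line, against 1 negative recovery and 0 negative injury cells.

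The fibroblast-high and fibroblast-low cells had like depth, at medians of 12253 and 10700 UMIs, but medians of 22.9 and 88.6 per 10000 for the stellate sum. Since the sums used these cells' counts, all values on this axis are descriptions. Ecm1 was at 1222 CPM in fibroblast-high and 7243 in fibroblast-low cells, and Tgfbi at 1168 and 3214. Rgs5 was at 295 and 1890 CPM, and 65.6% of its fibroblast-high counts came from 1 cell. After thinning, Rgs5 was seen in 3 of 51 fibroblast-high and 57 of 80 fibroblast-low cells. Col1a1, the alpha 1 chain of type I collagen (11:94936224-94953042), ran the other way at 2237 and 190 CPM, a log2 ratio of 3.49 (3.19 to 3.79). Ratios are log2 of CPM with 10 added to both sides, and their intervals again cover counting error. Col1a1 was seen after thinning in 37 of 51 and 16 of 80 cells, against 3 of 136 endothelial cells. Whether barcodes holding RNA of more than 1 cell play a part in the fibroblast-high cells was not tested.

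Among 7071 genes measured on this axis (at least 20 CPM in 1 side and 20 counts in all), 302 (4.27%) were at least 2-fold higher and 271 (3.83%) at least 2-fold lower in fibroblast-high cells. The median over all was -0.05. The stellate identity list (Ecm1, Colec10, Hhip, Rgs5, Hgf and others) had 0 of 23 higher and 19 lower, with a median of -1.75, and it holds 3 genes of the stellate sum. Pericyte receptors had 2 of 14 higher and 8 lower. Pdgfrb (765 against 358 CPM) and Itga8, an integrin chain (301 against 139), were the 2 that were higher. Fibrillar matrix genes had 11 of 18 higher and 1 lower, with a median of 1.32. The list of activation and fibrogenesis, which shares Col1a1 and Lox with it, had 13 of 17 higher and 0 lower, with a median of 1.58. Among these, Timp3, an inhibitor of metalloproteinases, was at 809 against 180 CPM, and Mmp2, a gelatinase, at 575 against 210. Acta2, the smooth muscle actin of myofibroblasts, was at 239 against 63.0 CPM, but 44.5% of its fibroblast-high counts were in 1 cell and 20 of all 131 cells had a UMI of it. Contractile genes had 3 of 8 higher and 0 lower.

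Matrix genes did not all go the same way along this axis. Col14a1, a fibril-associated collagen, was at 956 CPM in fibroblast-high and 1931 in fibroblast-low cells, the 1 matrix gene at least 2-fold lower. Dcn, the proteoglycan decorin, was at 21902 and 27772 CPM, so it was abundant on both sides, and the matrix list summed to 45114 against 41486 CPM although its members differed in both directions. Retinoid genes had 1 of 10 higher and 2 lower. Lpl, a lipase, was the higher one (966 against 315 CPM). Lrat (347 against 1101 CPM) and Bco1, which cleaves beta-carotene (44.2 against 174), were the lower ones.

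The 10 genes with the highest ratio on this axis were Dpt, Mfap4, Cyp2e1, Col1a1, Ltbp2, Ncam1, Dpep1, Col15a1, Gas6 and Svep1, of which Dpt and Mfap4 are in the fibroblast sum. Cyp2e1, a cytochrome best known from hepatocytes, was at 259 against 8.82 CPM. Over the list of 12 hepatocyte genes the summed level was 445 against 284 CPM. Only 1 of its 8 measured genes was at least 2-fold higher and 0 lower, with a median of -0.54, so the higher sum was not shared across the list. The part of free hepatocyte RNA in Cyp2e1 was not tested. Gas6, a ligand of TAM receptors, was at 979 against 125 CPM, and C3, the central complement protein, at 1359 against 197. Among the 10 lowest were Colec10, Angptl6, Plvap, Ntm, Fcna, Tmem56, Ccl2, Mapt and S1pr3. Of the Ccl2 counts in fibroblast-low cells 54.9% were in 1 cell, and 27 of 80 cells had a UMI of it. Plvap, a diaphragm protein of fenestrated endothelium (8:71497765-71511752), was at 154 against 2310 CPM. It was seen after thinning in 4 of 51 and 65 of 80 cells, and in 18 of 136 endothelial cells of that library, where its level was 129 CPM. Plvap was thus lower in endothelial cells of that library than in the fibroblast-low stellate cells. The sinusoidal endothelial list had a summed 77.0 CPM in fibroblast-high and 399.5 CPM in fibroblast-low cells, with 6 of 7 measured genes lower.

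**Figure D2:**
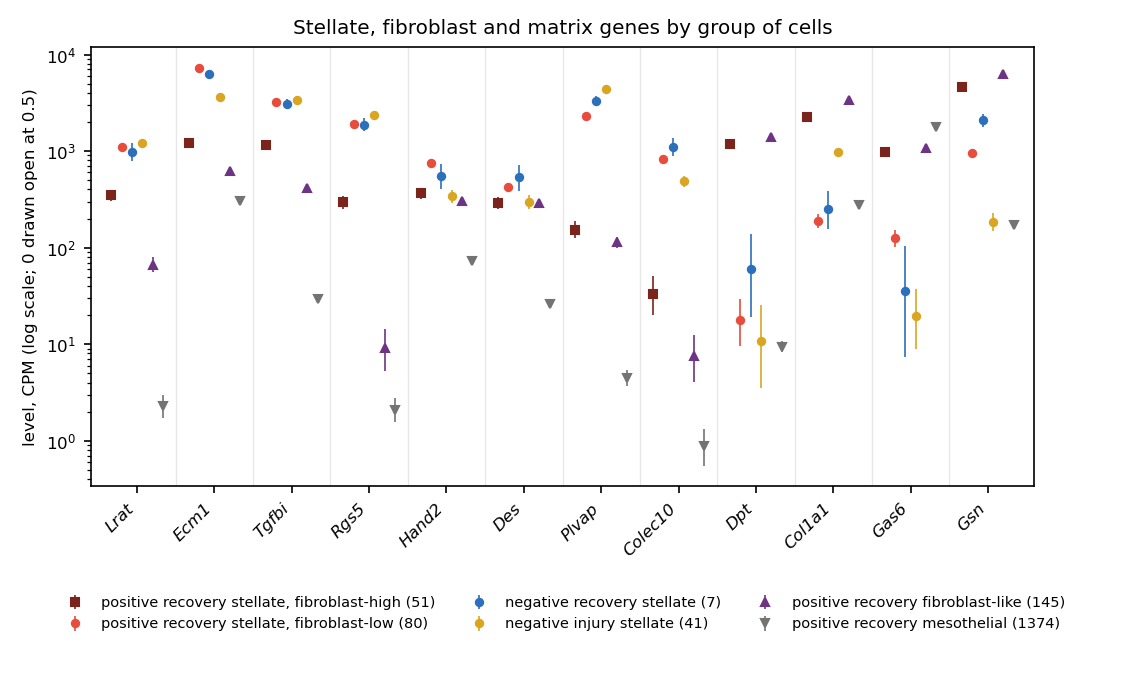
Level of 12 genes in CPM on a log axis, with exact Poisson 95% intervals, in 4 groups of stellate cells and in the fibroblast-like and mesothelial cells of positive recovery, with numbers of cells in the key. Col1a1 stood at 2237 CPM in fibroblast-high cells and at 190 in fibroblast-low cells, while Rgs5 stood at 295 and 1890.

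Bins of the stellate sum showed the change as gradual in some genes and not in others. From cells with a sum of 5 to 10, which were not members, to those with 60 or more, Ecm1 went from 688 through 986, 1064 and 1846 to 8535 CPM. Col1a1 went from 2938 through 2392, 2264 and 1401 to 119 CPM. Dpt stayed near 960 to 1274 CPM up to a sum of 25, was at 595 between 25 and 60, and at 3.16 above. Hand2 and Lhx2 spanned less, from 331 to 805 and from 148 to 421 CPM. Des showed no order, between 263 and 490 CPM. In cells with a sum of 60 or more, 0 of 60 had a fibroblast sum of 5, against 20 of 37 between 25 and 60 and 31 of 34 between 15 and 25. The 34 cells just outside the threshold had 31 such cells, so nothing in the fibroblast sum marked the threshold itself.

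The stellate cells differed from mesothelial cells, the lining of the liver capsule, in many genes of both libraries that could be compared. In positive recovery 817 of 7343 measured genes (11.1%) were at least 2-fold higher in stellate cells and 772 (10.5%) lower, and in negative injury 1016 (14.4%) and 897 (12.7%) of 7054. Over 6570 genes measured in both, 628 were higher in both libraries, which is 88.6% of those higher in positive recovery and 70.8% of those in negative injury. Another 563 were lower in both (82.2% and 68.2%), and 1 and 2 genes were called in opposite directions. In positive recovery the stellate identity list had 23 of 23 genes higher (median 4.63) and pericyte receptors 13 of 14 (median 3.89), beside a median of 0.05 over all genes. Leading genes were Cxcl12, a chemokine that retains leukocytes, Reln, Rgs5, Plvap, Colec11, Tmem56, Angptl6, Masp1, the protease partner of the collectins, Lrat and Fcna, a ficolin. Cxcl12 (6:117168535-117181367) was at 4984 CPM in stellate and 32.4 in mesothelial cells, with a UMI in each of the 131 cells. In negative injury Cxcl12 was at 2997 against 5.99 CPM.

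Transcription factors set the classes apart in both directions. In positive recovery 11 of 19 were at least 2-fold higher and 5 lower than in mesothelial cells, beside 11.1% and 10.5% of all genes. Tcf21, a bHLH factor, was at 656 against 6.15 CPM, and Zeb2, a zinc finger repressor, at 1028 against 35.2. Osr1 was at 1.42 CPM in stellate cells, 2 counts over 131 cells, against 120 CPM in mesothelial, 33.5 in fibroblast-like and 4.08 in endothelial cells. Osr1 was thus at the endothelial background in stellate cells of positive recovery, and it had 0 counts in the 7 and 41 cells of the negative libraries. Wt1, a mesothelial factor, was at 125 against 383 CPM, and within the stellate cells at 224 in fibroblast-high and 47.9 in fibroblast-low cells. In the negative injury library Wt1 was at 13.0 CPM in stellate and 492 in mesothelial cells.

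Matrix was higher in stellate than in mesothelial cells. Over all genes 11.1% were higher and 10.5% lower in positive recovery, and 14.4% and 12.7% in negative injury. Fibrillar matrix had 11 of 18 genes higher and 0 lower in positive recovery (median 1.42), and 12 higher and 3 lower in negative injury (median 2.23). Lum, the proteoglycan lumican, was at 1696 against 32.7 CPM and Dcn at 25219 against 9353 in positive recovery. Basement membrane genes had 6 of 12 higher and 2 lower, and in negative injury 8 of 10 higher and 1 lower. Col4a1, a chain of the basement membrane collagen, was at 1213 against 134 CPM in negative injury. Retinoid genes had 6 of 11 higher and 1 lower in positive recovery. Aldh1a1, a retinaldehyde dehydrogenase, was at 183 against 234 CPM. Stra6 and Crabp1 had 0 counts in all 179 cells. The lowest ratios belonged to Igfbp5, Krt19, Msln and Igfbp6. Igfbp5, a binding protein of insulin-like growth factors, was at 8651 CPM in mesothelial cells and at 117 in stellate, 117 in fibroblast-like and 121 in endothelial cells of that library, a like level in classes that differ otherwise.

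Against the 145 fibroblast-like cells of positive recovery, chosen by at least 10 per 10000 for the fibroblast sum with a stellate sum under 15, fewer genes differed. Of 7059 measured genes 219 (3.1%) were at least 2-fold higher in stellate cells and 249 (3.53%) lower. Stellate identity had 19 of 23 higher (median 2.63) and pericyte receptors 10 of 14, while fibrillar matrix had 1 higher and 9 of 18 lower (median -0.92). Activation genes had 1 of 17 higher and 9 lower. Angptl6 was at 1110 against 6.38 CPM, Rgs5 at 1196 against 9.04, Vipr1, a receptor for vasoactive intestinal peptide, at 682 against 20.2, and Colec10 at 485 against 7.45. Several stellate genes did not separate the classes. Tcf21 was at 656 against 663 CPM, Cygb, cytoglobin, at 1125 against 1195, and Pdgfrb at 535 against 592. These stellate values pool fibroblast-high and fibroblast-low cells, and in the 60 cells with a stellate sum of 60 or more Pdgfrb was at 329 CPM. Mgp, an inhibitor of calcification, had the lowest ratio (32.0 against 578 CPM). Acta2 was at 140 against 622 CPM and Tagln, a smooth muscle marker, at 518 against 1619.

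**Figure D3:**
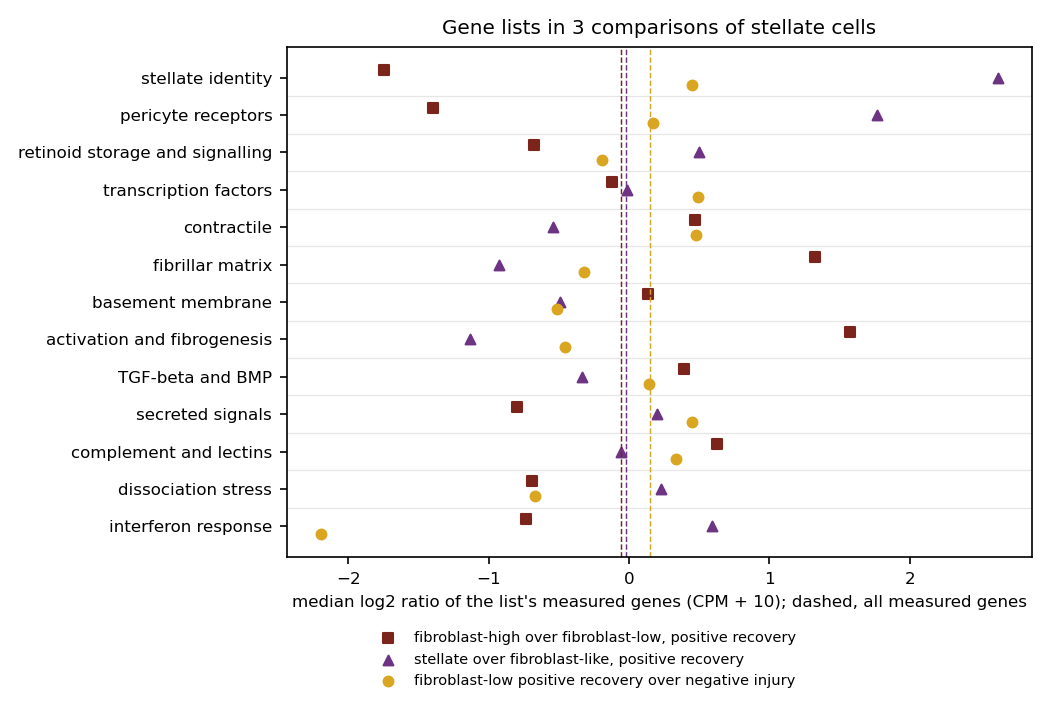
Median log2 ratio (CPM with 10 added) of 13 gene lists in 3 comparisons, with dashed lines at the median of all measured genes in the colour of each comparison. Stellate identity stood at -1.75 in fibroblast-high over fibroblast-low cells and at 2.63 in stellate over fibroblast-like cells, and the interferon list at -2.20 in fibroblast-low positive recovery over negative injury cells.

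Stellate cells of positive recovery and negative injury differ in stage and in reporter fraction, which cannot be told apart. This comparison was added after the data were seen. Of 6861 measured genes 366 (5.33%) were at least 2-fold higher in positive recovery and 266 (3.88%) lower, with a median of 0.13 over all. TMM scaling, which sets that median to 0.02, gave 287 higher and 342 lower. Because fibroblast-high cells were 51 of 131 in positive recovery and 0 of 41 in negative injury, the 80 fibroblast-low cells were also compared. Of 6753 genes 298 (4.41%) were higher and 243 (3.6%) lower, with a median of 0.15, and TMM gave 197 and 311 with a median of 0.02.

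The interferon response genes, known targets of type I and II interferon, were lower in positive recovery. All 14 were at least 2-fold lower than in negative injury, with a median of -2.37 (-2.51 under TMM), and 13 of 14 in fibroblast-low cells, with a median of -2.20 (-2.35 under TMM). Gbp2, a guanylate binding protein, was the exception at 98.3 against 156 CPM. Irf7, a transcription factor that amplifies interferon (7:141262706-141266481), was at 42.0 CPM (32.0 to 54.2) in positive recovery, 23.8 (2.88 to 85.8) in negative recovery and 1111 (1017 to 1211) in negative injury. The positive recovery to negative injury log2 ratio of Irf7 was -4.43 (-4.86 to -4.00). Ifit3, an antiviral RNA-binding family member, was at 84.0, 214 and 1410 CPM, and Isg15, a ubiquitin-like modifier, at 79.8, 202 and 877. Both recovery libraries were low and the injury library high, with no overlap of intervals. Bst2, tetherin, was at 249, 309 and 1605 CPM, and Ifitm3, a membrane protein that blocks viral entry, at 2597, 3481 and 7285.

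The signal was spread over the cells. With each cell thinned to 1000 UMIs, the list summed to a median of 17 UMIs in negative injury (lowest 1, highest 37), 5 in negative recovery (3 to 7) and 4 in positive recovery (0 to 26). The cells thus overlapped, with 101 of 131, 7 of 7 and 40 of 41 at 3 UMIs or more. Irf7 was seen after thinning in 9 of 131, 0 of 7 and 21 of 41 cells, and in 1 of 136, 48 of 2115 and 1046 of 2457 endothelial cells. Unthinned, Irf7 was seen in 31.3% of positive recovery and 95.1% of negative injury stellate cells. Within positive recovery, fibroblast-high cells had a median of 3 and fibroblast-low cells of 5, and 0 of 13 genes were higher and 4 lower in the former.

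The same list was lower in positive recovery in the other classes. Mesothelial cells had 12 of 14 genes at least 2-fold lower and 0 higher (2.56% and 3.03% of all 6569 genes) with a median of -1.35, and endothelial cells 12 of 14 lower and 0 higher (3.22% and 1.42% of all 6920) with a median of -2.10. In negative injury 8 of 14 interferon genes were at least 2-fold higher in stellate than in mesothelial cells and 1 lower. Their median was 1.19, and the shares over all genes were 14.4% and 12.7%. In positive recovery 1 of 13 was higher and 2 lower, near the shares of 11.1% and 10.5% over all genes, with a median of 0.29. Ifi27l2a was at 3634 CPM in stellate, 1952 in mesothelial and 32.5 in endothelial cells of negative injury. Ifit3 was at 1410, 291 and 647. The order of classes thus differed by gene, and whether the difference between libraries was larger in 1 class was not tested.

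**Figure D4:**
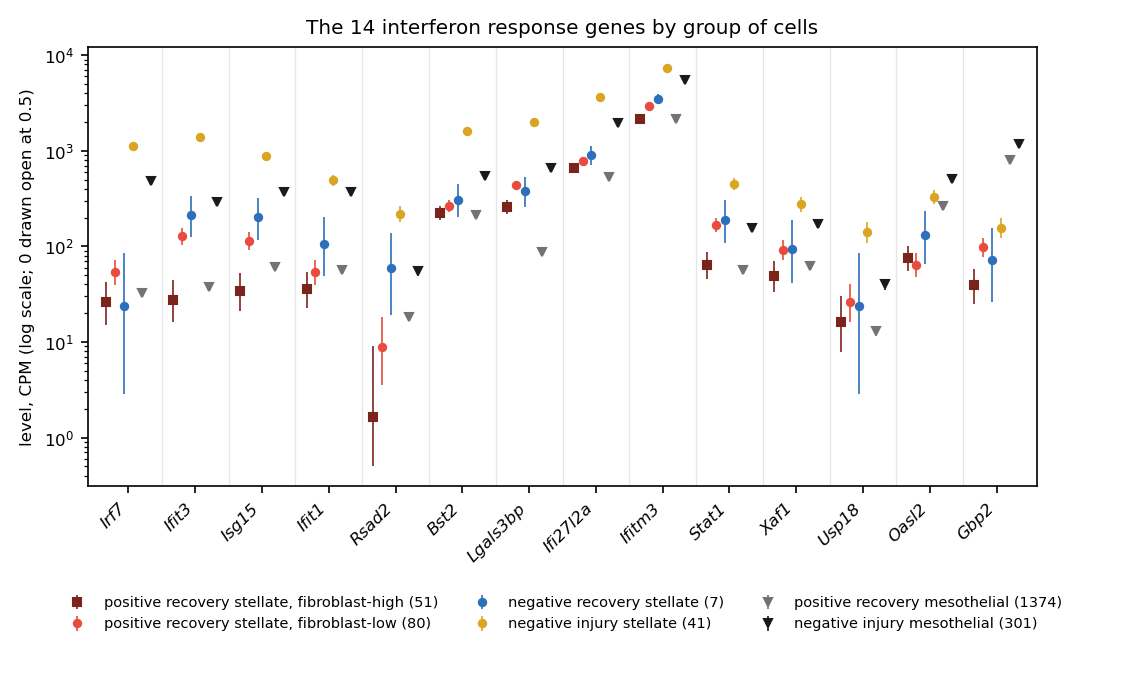
Level of the 14 interferon response genes in CPM on a log axis, with exact Poisson 95% intervals, in 4 groups of stellate cells and in mesothelial cells of 2 libraries. Negative injury stellate cells were the highest stellate group in each gene, for example 1111 CPM for Irf7 against 42.0 over all positive recovery stellate cells.

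Promoters of these genes were searched for GAAA with a second GAAA after 2 bases of any kind, the core letters that interferon-activated factors bind, a motif chosen after the values were seen. It was found on either strand in 6 of the 11 list genes with a promoter in RefSeq's table (GRCm38.p6), Isg15, Ifit1, Ifit3, Bst2, Rsad2 and Gbp2, and in 2.98% of all 32851 promoters. Irf7, Ifitm3, Oasl2, Xaf1 and Lgals3bp had a promoter there and 0 matches, although Irf7 had the lowest ratio of all genes. Gbp2, with 1 match, was the gene not 2-fold lower in fibroblast-low cells. The 160 bases before the start are printed for 4 of the 6, with matches in capitals, where TTTC is GAAA read on the other strand. In Isg15 (chr4:156200819-156200978, minus strand) 3 overlapping matches covered bases 78 to 57 before the start. Ifit1 (chr19:34640729-34640888, plus strand) had matches at 104 to 95 and 85 to 76, Ifit3 (chr19:34583369-34583528, plus strand) at 156 to 147 and 122 to 113, and Rsad2 (chr12:26456453-26456612, minus strand) at 120 to 111.
Isg15: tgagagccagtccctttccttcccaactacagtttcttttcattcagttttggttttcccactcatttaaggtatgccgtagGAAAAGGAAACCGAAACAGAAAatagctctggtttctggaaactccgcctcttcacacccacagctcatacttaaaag
Ifit1: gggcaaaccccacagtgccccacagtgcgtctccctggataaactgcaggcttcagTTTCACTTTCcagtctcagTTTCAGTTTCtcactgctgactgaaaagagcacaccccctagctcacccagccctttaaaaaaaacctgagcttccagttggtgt
Ifit3: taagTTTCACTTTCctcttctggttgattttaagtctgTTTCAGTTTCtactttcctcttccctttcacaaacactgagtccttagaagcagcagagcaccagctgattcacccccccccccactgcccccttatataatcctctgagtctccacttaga
Rsad2: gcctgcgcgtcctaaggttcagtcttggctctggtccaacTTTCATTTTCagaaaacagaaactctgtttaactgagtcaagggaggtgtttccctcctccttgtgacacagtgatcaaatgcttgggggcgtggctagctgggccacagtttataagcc

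Genes known to be induced by cell dissociation differed in the same direction. The dissociation stress list (Fos, Jun, Egr1, Atf3 and others) had 6 of 16 genes at least 2-fold lower in positive recovery than in negative injury stellate cells and 0 higher, beside 3.88% and 5.33% of all genes. In fibroblast-low cells 4 of 16 were lower and 0 higher, beside 3.6% and 4.41%. Thinned to 1000 UMIs, its median was 9 UMIs in positive recovery, 11 in negative recovery and 25 in negative injury. In mesothelial cells the medians were 17, 16 and 28, and in endothelial cells 12.5, 13 and 23. Atf3 was at 98.3 against 290 CPM and Fos at 1575 against 3110. The part of dissociation in the interferon and matrix values was not tested.

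Matrix levels depended on which positive recovery cells were taken. Over all members, fibrillar matrix had 2 of 18 higher and 1 lower against negative injury, with a median of 0.01 that became -0.10 under TMM, -0.11 with the mean of each cell's CPM and -0.25 with a stellate sum of at least 25. Col1a1 was then at 1080 CPM (1027 to 1136) in positive recovery, 249 (154 to 381) in negative recovery and 985 (897 to 1080) in negative injury. In fibroblast-low cells Col1a1 was at 190 CPM, a log2 ratio of -2.31 (-2.67 to -1.96) to negative injury, and Col3a1, the chain of type III collagen, was at 975 against 2752. The limit on the fibroblast sum removed cells high in Col1a1 from positive recovery and 0 cells from negative injury, so the fibroblast-low values depend on it. Over all members, basement membrane had 2 of 10 genes higher and 1 lower. In fibroblast-low cells 2 of 17 matrix genes were higher and 5 lower, beside 4.41% and 3.6% of all genes. Basement membrane had 0 of 8 higher and 3 lower there. Loxl2, a lysyl oxidase that crosslinks collagen, was at 92.0 against 279 CPM, Col4a1 at 587 against 1213 and Sparc, a matricellular protein, at 2911 against 6187. Dcn was at 27772 against 27095. After thinning, Col1a1 was seen in 53 of 131 positive recovery cells (40.5%), 0 of 7 and 19 of 41 (46.3%), and in 3, 1 and 2 endothelial cells.

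Over all members, activation genes had 3 of 18 higher and 4 lower than in negative injury, beside 5.33% and 3.88% of all genes. Their median was -0.04 beside 0.13. Since 13 of 17 activation genes were higher in fibroblast-high than in fibroblast-low cells, values in fibroblast-low cells depend on the split. In fibroblast-low cells 2 of 17 were higher and 6 lower, beside 4.41% and 3.6% of all genes. Thbs1, thrombospondin, was at 45.4 against 275 CPM, and Postn, periostin, at 75.6 against 264. Spp1, osteopontin, had 3 counts in positive recovery and 59 in negative injury (128 CPM), of which 37.3% were in 1 cell. Negative injury mesothelial cells had 130 CPM and endothelial cells 106 CPM of Spp1, a like level in 3 classes, and positive recovery endothelial cells 339 CPM. Acta2 was lower in negative injury, with 7 counts in 1 of 41 cells (15.2 CPM) against 196 counts in 20 of 131 positive recovery cells (140 CPM, 94.5 without the top cell). Tagln was at 518, 1521 and 437 CPM in positive recovery, negative recovery and negative injury. Lcn2 and Serpina3n, acute phase genes, were at 1.26 against 139 and 2.52 against 273 CPM in fibroblast-low and negative injury cells. Of the negative injury Lcn2 counts 46.9% were in 1 of 41 cells, and its level was 77.1 CPM without that cell. Mesothelial cells of negative injury held 776 and 892 CPM of Lcn2 and Serpina3n.

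The stellate identity list had 0 of 23 higher and 1 lower in positive recovery over all members, beside 5.33% and 3.88% of all genes. Its median of -0.06 became 0.02 with the mean of each cell's CPM and 0.26 with a stellate sum of at least 25. In fibroblast-low cells 5 were higher and 1 lower, beside 4.41% and 3.6% of all genes, with a median of 0.45 beside 0.15. The 5 were Angptl6, Ecm1, Ngfr, Pth1r and Vipr1. The list holds genes of the stellate sum that chose the members, Angptl6 among them. The split left out positive recovery cells with a median stellate sum of 22.9, and 0 cells of negative injury. The fibroblast-low cells of positive recovery then had a median stellate sum of 88.6, against 56.8 in negative injury. Their identity values therefore depend on the split and are descriptions. Sod3, extracellular superoxide dismutase, was the lower gene, at 1071 CPM in positive recovery, 2316 in negative recovery and 3445 in negative injury. Plvap was at 1372, 3279 and 4366 CPM, and in fibroblast-low cells at 2310. Genes described for portal-side and for central vein-side stellate cells each had 1 of 4 higher and 0 lower in fibroblast-low cells, with medians of 0.43 and 0.31. The portal-side gene was Ngfr (197 against 84.5 CPM), a neurotrophin receptor, and the central vein-side gene was Loxl1 (84.4 against 36.8 CPM), a lysyl oxidase. No retinoid gene of 10 was 2-fold different in fibroblast-low cells, where Lrat was at 1101 against 1206 CPM and Plin2, a lipid droplet coat protein, at 200 against 305.

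Further genes were higher in positive recovery. Gsn, the actin-severing protein gelsolin (2:35256380-35307892), was at 2556 CPM in positive recovery and 186 in negative injury, and at 957 in fibroblast-low cells. In negative recovery Gsn was at 2091 CPM, but 83.5% of that came from 1 cell, and at 382 without it. Gas6 was at 496, 35.6 and 19.5 CPM and C3 at 702, 71.3 and 49.8 in positive recovery, negative recovery and negative injury. These values depended on the mix of cells, since Gas6 was at 979 CPM in fibroblast-high and 125 in fibroblast-low cells of positive recovery. For C3 the log2 ratio of fibroblast-high over fibroblast-low cells was 2.73. Mesothelial cells held 1764 CPM of Gas6 and 8959 of C3 in positive recovery, and 2570 and 14643 in negative injury. They were 1374 of 2126 kept cells in positive recovery and 301 of 5271 in negative injury. The part of free mesothelial RNA in these stellate values was not tested. Ltbp4, a latent TGF-beta binding protein, was at 538, 594 and 154 CPM, but in mesothelial cells it was also higher in positive recovery (827 against 264) and in endothelial cells (550 against 131).

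Of the 7 negative recovery cells 6 were fibroblast-low by the same limit, and they resembled fibroblast-low cells of positive recovery in several genes by value. Ecm1 was at 6272 CPM (5749 to 6831), Tgfbi at 3077, Rgs5 at 1877 and Bco1 at 238. Other genes departed. The contractile list summed to 3112 CPM against 1506 in fibroblast-low cells of positive recovery, and the portal-side stellate genes to 3077 against 1217. Angptl6, a gene of the stellate sum, was at 2447 and Colec10 at 1105 CPM, above both other libraries taken whole. In fibroblast-low cells of positive recovery these 2 genes were at 1880 and 833 CPM. Ccl2, a monocyte attracting chemokine, was at 1283 CPM, of which 79.6% came from 1 cell. Wt1, Col15a1 and Igf1 had 0 counts, and with a floor of 3 counts per library this allows a level of up to 35.6 CPM. The fibroblast-high cell of this library held all 5 counts of Dpt.

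Among positive recovery cells thinned to 1000 UMIs, 38 of 1609 genes with a mean of at least 0.1 UMI had a variance of at least 2 times the mean, against a median ratio of 1.04. In negative injury 54 of 1498 genes did. The largest ratios were those of Malat1 (22.4), a nuclear RNA, Gm42418 (14.2), which overlaps ribosomal RNA sequence, Ecm1 (5.10), Gsn (4.75), Col3a1 (4.60), mt-Co3 (4.11), Dcn (3.97), mt-Atp6 (3.93), Rgs5 (3.35) and Ccl2 (3.22). Ecm1, Gsn, Col3a1 and Rgs5 were each at least 2-fold different along the fibroblast axis above. Ecm1, Gsn, Col3a1 and Rgs5 had ratios of 2.06, 1.14, 4.53 and 1.38 in negative injury, where Gsn had a mean of only 0.17 UMI. Col3a1 thus varied about as much there, without fibroblast-high cells. A UMI of any cycle gene was seen in 62 of 131 positive recovery, 5 of 7 negative recovery and 13 of 41 negative injury cells. Few cells had 4 or more cycle genes, with 0, 0 and 1 in the same order. In negative injury 1 of 41 cells held 205 of the 222 cycle UMIs, among them each count of Mki67, Top2a and Cenpf, and 0 of 131 positive recovery cells had 4 or more cycle genes.

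Markers of other cells ranged from 0 to abundant. The 12 portal fibroblast genes, among them those of the fibroblast sum, came to 3588 CPM in positive recovery (6841 in fibroblast-high and 1084 in fibroblast-low cells), 2364 in negative recovery and 238 in negative injury. The 7 vascular endothelial genes came to 1593, 3552 and 5804 CPM, mostly Plvap, while Ly6c1 and Sox17 had 0 counts in each library. Ptprc, the pan-leukocyte antigen, had 0 counts in all 179 cells. Of 9 lymphocyte genes 7 were at 0 in positive recovery and 9 in each negative library. The 14 mesothelial genes summed to 289 CPM in positive recovery, 71.3 in negative recovery and 47.6 in negative injury stellate cells, against 13444 CPM in positive recovery mesothelial cells. The 12 sinusoidal endothelial genes summed to 259, 428 and 327 CPM. The endothelial sum reached 5 per 10000 in 8, 1 and 3 cells. For vascular smooth muscle, Cnn1 had 0 counts in each library, and the list's sum of 939, 1402 and 2012 CPM came mostly from Mustn1 (842, 1236 and 1960 CPM), which is not specific to that cell. Myh11, the smooth muscle myosin, was at 53.4, 154 and 39.0 CPM.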

How the data were processed

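Single cells from 3 libraries were analysed. The authors deposited raw UMI counts per gene and barcode, made with 10x software 3.1.0 per the file headers, and the submitters' processing notes name mm10 and featureCounts 1.6.2. Barcodes with at least 1000 UMIs, 300 genes and at most 20% mitochondrial UMIs were kept (2126, 2818 and 5271 cells in positive recovery, negative recovery and negative injury, from 33442403, 27816768 and 49993127 UMIs in the libraries). The reporter is not among the 31053 features. Classes were set by marker sums per 10000 UMIs, and endothelial cells had at least 50 for the endothelial genes. Counts were summed per class, scaled to CPM and compared as log2 ratios after adding 10. A gene was measured at 20 CPM or more in 1 class, and in comparisons between libraries or within the stellate cells also at 20 counts. With 1 library per group no p-value was computed. Named genes were the 10 highest and 10 lowest ratios of each comparison, members of 27 lists (312 symbols), the markers and the 10 most variable genes. Some genes that this rule names are not reported here. Members and lists were chosen with earlier results of these data known. Doublets were called with Scrublet in scanpy 1.11.5, and TMM factors with edgeR 4.0.16. Scripts used numpy 2.4.6 and scipy 1.17.1 and were tested on simulated data. Sequences came from RefSeq's promoter table, and coordinates from the GENCODE annotation of mm10, which held 30934 of the 31053 gene IDs. Alternatives were other pseudocounts, TMM, no filter, other limits on members and removal of called doublets.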

Additional observations from a re-analysis of the deposited data

Results flagged for a closer look

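Il33, an alarmin cytokine, differed in opposite directions in 2 classes of cell. Its log2 ratio of positive recovery over negative injury was -1.21 in stellate cells (17.8 against 54.1 CPM) and 1.22 in mesothelial cells (108 against 40.6 CPM). The difference between the classes was not tested, and with 1 library per group it cannot be.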

How the results depend on the processing

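No paired analysis was possible because each group is 1 library. Between positive recovery and negative injury, 2 list medians near 0 changed sign: fibrillar matrix (0.01) was -0.10 under TMM, -0.11 with the mean of each cell's CPM and -0.25 with a stellate sum of at least 25, and stellate identity (-0.06) was 0.02 and 0.26 under the last 2 settings. The split of all genes there went from 366 higher and 266 lower to 287 and 342 under TMM. Of the values that answer a comparison 119 stayed close and 28 moved, and of the others 345 and 75. The comparisons of positive recovery with negative injury and of fibroblast-high with fibroblast-low cells, with their alternatives, were chosen after seeing the data. With a pseudocount of 50, genes at least 2-fold higher and lower numbered 411 and 366 for stellate against mesothelial cells in positive recovery, 501 and 390 in negative injury, 88 and 71 against fibroblast-like cells, 80 and 134 for positive recovery against negative injury, 38 and 117 for its fibroblast-low cells, and 99 and 97 for fibroblast-high against fibroblast-low cells. With a pseudocount of 1, 374 were lower than in fibroblast-like cells, 699 higher in positive recovery, 631 higher in its fibroblast-low cells, and 476 higher and 491 lower in fibroblast-high cells. For fibroblast-low cells TMM gave 197 higher and no filter 458. With a stellate sum of at least 25, 385 genes were lower than in fibroblast-like cells and 445 lower in fibroblast-high cells. Thinned to 3000 UMIs, 164 genes had a variance of at least 2 times the mean. Without thinning, Lrat was seen in 92.4% of positive recovery and 100% of negative injury cells, Ecm1 in 98.5% and 100%, and Irf7 in 31.3% and 95.1%. A smaller pseudocount admits genes of few counts, and deeper thinning keeps more counts. The cause of the other shifts was not tested. Members numbered 165, 8 and 41 at a stellate sum of 10 and 97, 6 and 40 at 25. With 84179 UMIs in negative recovery, 0 counts allow a level of up to 35.6 CPM there.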

Other observations

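Gm12840, a long non-coding RNA gene on chromosome 4, was at 192 CPM in positive recovery stellate cells and had 0 counts in negative injury stellate cells. Against a floor of 3 counts over those cells it was at least 29.5-fold higher. It was also higher in mesothelial cells (2233 against 5.50 CPM) and endothelial cells (407 against 1.11 CPM) of positive recovery, and it stood at 249 CPM in the 7 negative recovery stellate cells.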
